A study of Mus musculus with 6 samples.

Results

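Pancreatic lipase (Pnlip), its relatives Pnliprp1 and Pnliprp2, carboxyl ester lipase (Cel), colipase (Clps) and the secreted phospholipase A2 of the pancreas (Pla2g1b) are the fat-digesting members of the acinar cell's secretion. These 6 genes were chosen by name, and every probe that is not a control and carries one of those names was taken, which gave 8 of 55681 probes, 2 each for Clps and Pla2g1b and 1 for each other gene. RNA from the whole pancreas was hybridised to single-colour Agilent arrays, with 2 arrays for each of 3 genotypes. Spink3-/- mice lack Spink3, a trypsin inhibitor made by acinar cells, and in the series' design all their acinar cells are dying by a route with autophagy that is not apoptosis. Spink3-/-XKI/+ mice lack Spink3 as well and carry an allele written XKI, which the labels do not spell out; in the design roughly equal parts of their acinar cells are normal and dying. Spink3+/+ mice are the wild-type controls. All were of the C57BL/6N background and were taken at postnatal day 0.5. Whether the 2 arrays of a genotype stand for different animals is not stated in the labels, so each p-value covers the spread among these 6 samples, which may be technical.

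Dietary fat reaches the gut mainly as triglyceride. Pancreatic lipase cuts fatty acids from it at the surface of fat droplets, and colipase anchors the lipase there when bile salts cover the surface. Carboxyl ester lipase needs bile salts to act and takes cholesteryl esters and many other esters, while phospholipase A2 is secreted as a proenzyme that trypsin activates and that cuts phospholipids. In newborn rodents the related proteins are made in quantity before weaning, whereas pancreatic lipase itself is known as a gene of the older animal.

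The probes are the pieces of transcript on which the values below rest, so several are shown here as the array design gives them, 5′ to 3′ on the transcript's strand. Coordinates are those of the mm9 annotation in the array files. The 3 lipase genes are neighbours on chromosome 19, on the plus strand. The Pnliprp1 probe is spread over chr19:58815028-58815621 and the Pnliprp2 probe is at chr19:58848560-58848619. The longest run of bases shared between the probes of any 2 of these 3 genes is 6 bases.
Pnliprp1: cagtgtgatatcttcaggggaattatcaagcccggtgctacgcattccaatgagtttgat
Pnliprp2: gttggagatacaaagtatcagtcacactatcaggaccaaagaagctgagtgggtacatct
The Pnliprp1 probe has 60 bases but spans 594 bases of genome. The Cel probe is at chr2:28411609-28411668 and the dimmer Clps probe at chr17:28695761-28695820, both on the minus strand, and a brighter Clps probe at chr17:28695162-28695221 is named only by its position.
Cel: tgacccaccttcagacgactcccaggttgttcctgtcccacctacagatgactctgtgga
Clps, dimmer probe: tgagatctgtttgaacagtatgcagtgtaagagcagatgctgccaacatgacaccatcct
The Pla2g1b probes are shown because they gave unlike values. The brighter one is at chr5:115924590-115924649, and the dimmer one, which belongs to the separate transcript record AK019009, at chr5:115921797-115921853, which is 2736 bases further upstream. The first 30 bases of the brighter probe and the last 30 of the dimmer are given, with the polyadenylation hexamer AATAAA in capitals.
Pla2g1b, brighter probe: cgtacaacaaggaatacaaaaaccttgaca
Pla2g1b, dimmer probe: gctttcAATAAAtatatgctaatagcgatc

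All 8 probes were well above background on all 6 arrays, and no spot of theirs was saturated or marked as an outlier. On each array taken singly, 42.4% to 50.8% of the spots that are not controls were well above background. The 75th percentile of the signal, on which each array was scaled, ran from 111 to 155, so the brightest array stood 1.40 times above the dimmest. A level is the log2 of a signal over that percentile, so a level of 0 is the percentile itself. Over the probes well above background on both arrays of some genotype, correlations between arrays ran from 0.971 to 0.984. Spink3 was at signals of 1481 and 857 in Spink3-/- pancreas and 882 and 595 in Spink3-/-XKI/+, against 126606 and 156545 in Spink3+/+, and was lower in both by limma (log2 differences -6.95, adjusted p = 0.00103, and -7.56, adjusted p = 0.000616); the sources used here do not give where its probe lies relative to the deleted part. The defining markers of the tissue were present: 5 of 5 acinar and 7 of 7 islet markers were well above background on every array. Summed over the acinar markers, the signal in units of the 75th percentile ranged from 6702 to 9356 in Spink3-/-, 7801 to 8385 in Spink3-/-XKI/+ and 7402 to 8531 in Spink3+/+ pancreas, and the genotypes overlapped. In whole tissue, fewer cells of a type and less RNA per cell cannot be told apart.

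None of the 6 genes passed the adjusted threshold of 0.05 in limma in any comparison. Pnlip and the brighter Pla2g1b probe separated the genotypes on every array, while the most intense members, Pnliprp1 and Clps, overlapped between genotypes. Pnlip and Pla2g1b were lowest in Spink3-/- and highest in Spink3-/-XKI/+, with Spink3+/+ between them and no overlap among the arrays. On the dimmer Pla2g1b probe the Spink3-/-XKI/+ and Spink3+/+ arrays overlapped. Of the 14164 tested genes, 1.95% had this order without overlap. The order was read from these 2 genes, so that share does not measure how rare any order without overlap is. Of all genes, limma called 0.0353% in Spink3-/- against Spink3+/+, 0.00706% in Spink3-/-XKI/+ against Spink3+/+ and 0.00706% in Spink3-/- against Spink3-/-XKI/+. At an unadjusted p under 0.05, 2 of the 6 members were lower in Spink3-/- than in Spink3+/+, beside 2.33% of all genes. The same 2 genes were higher in Spink3-/-XKI/+ than in Spink3+/+, beside 5.02% of all genes, and lower in Spink3-/- than in Spink3-/-XKI/+, beside 4.77%. The 3 comparisons share their arrays, so these counts do not stand for separate observations.

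**Figure D1:**
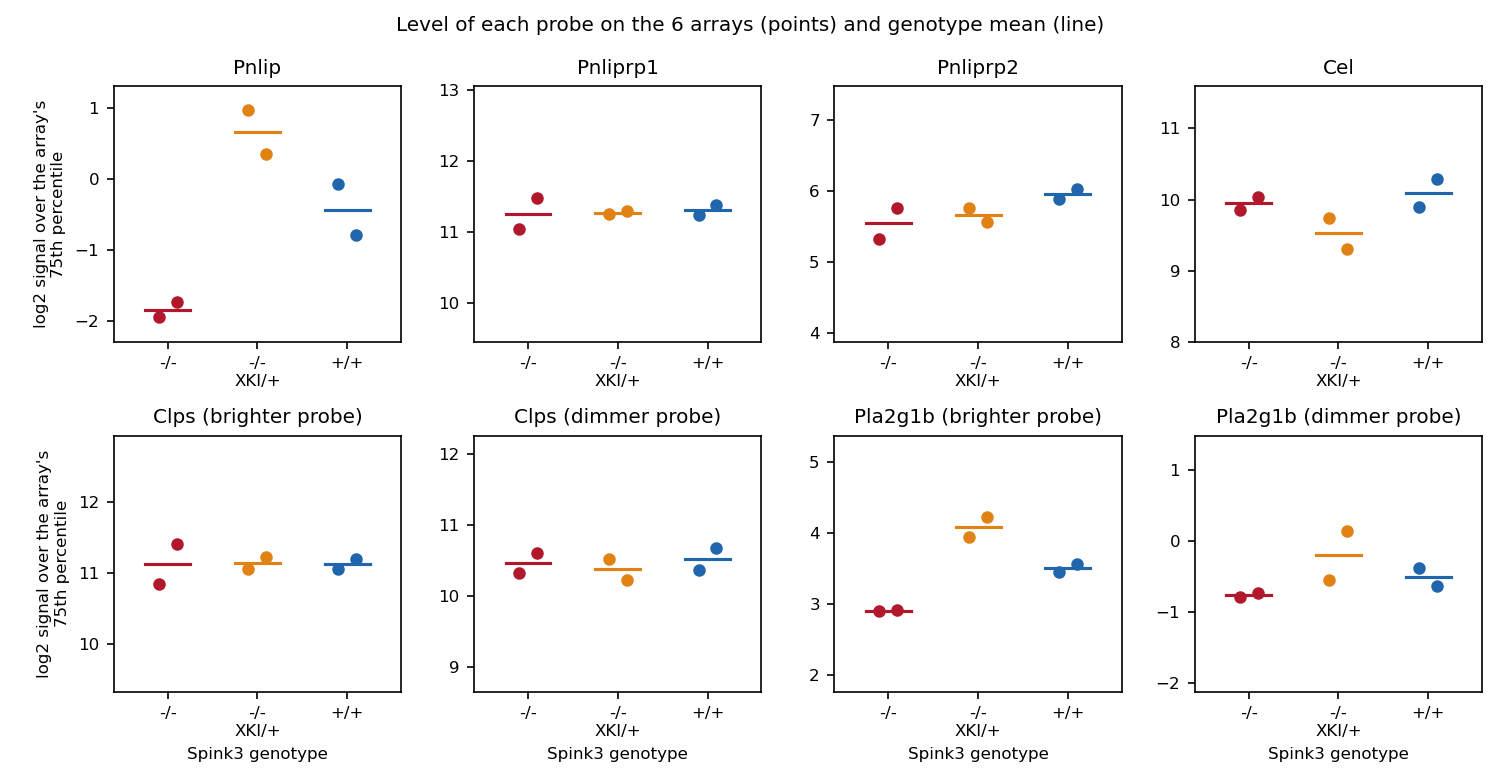
Level of each of the 8 probes on each array (points; log2 of signal over the array's 75th percentile) with the mean of the 2 arrays of a genotype (line), for Spink3-/-, Spink3-/-XKI/+ and Spink3+/+ pancreas. Every panel covers the same number of log2 units; Pnlip spreads over 2.91 units and both Pla2g1b probes have their lowest arrays in Spink3-/-, while Pnliprp1 and the brighter Clps probe overlap in all genotypes.

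Among the triglyceride lipases, Pnlip, the main lipase of adult pancreatic juice, had signals of 40.3 and 33.5 in Spink3-/- pancreas and 276 and 151 in Spink3-/-XKI/+, against 132 and 73.8 in Spink3+/+. Both Spink3-/- arrays were below every other array, and both Spink3-/-XKI/+ arrays were above every Spink3+/+ array. Mean levels were -1.84 ± 0.15 in Spink3-/-, 0.66 ± 0.43 in Spink3-/-XKI/+ and -0.43 ± 0.51 in Spink3+/+ (SD, n = 2 each).
The log2 difference between Spink3-/- and Spink3+/+ was -1.41 ± 0.32 (SE), a level 2.65-fold lower, with a 95% interval of -2.18 to -0.64, an unadjusted p of 0.00416 and an adjusted p of 0.734 in limma. Between Spink3-/-XKI/+ and Spink3+/+ it was 1.09 ± 0.32, or 2.13-fold higher (interval 0.32 to 1.86; limma, unadjusted p = 0.0132, adjusted p = 0.525). The widest gap was between Spink3-/- and Spink3-/-XKI/+, at -2.50 ± 0.32, or 5.65-fold lower (interval -3.27 to -1.73). Its unadjusted p of 0.000200 was the 12th lowest of the 14164 genes in that comparison, and its adjusted p in limma was 0.224.
The Pnlip signals in Spink3-/- were dim, and the scanner's own error for the spot reached 19.3% of the signal there. With another background correction (normexp, with an offset of 50 added) the 3 differences kept their signs but shrank to -0.63, 0.82 and -1.45. The first and last shrank by over 1.5 times. An added offset of that size by itself brings dim log2 signals closer together, and its share in the shrinkage was not tested.

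Pnliprp1, a close relative of pancreatic lipase that shows little lipase activity of its own, had signals of 326401 and 316087 in Spink3-/- pancreas and 344608 and 297599 in Spink3-/-XKI/+, against 333830 and 340345 in Spink3+/+. These 6 signals lay within 1.16-fold of each other, and the genotypes overlapped. The log2 difference was -0.05 (95% interval -0.55 to 0.44) between Spink3-/- and Spink3+/+, -0.03 (-0.53 to 0.46) between Spink3-/-XKI/+ and Spink3+/+ and -0.02 (-0.51 to 0.48) between Spink3-/- and Spink3-/-XKI/+, so differences of up to about these bounds cannot be told from 0 with 2 arrays a genotype.
Pnliprp2, which cuts galactolipids and phospholipids as well as triglycerides, had signals of 6245 and 6061 in Spink3-/- pancreas and 7696 and 5576 in Spink3-/-XKI/+, against 8184 and 8339 in Spink3+/+. After scaling, both arrays of each mutant lay below both Spink3+/+ arrays, and the mutants overlapped with each other. The differences from Spink3+/+ were -0.41 ± 0.21 in Spink3-/- and -0.29 ± 0.21 in Spink3-/-XKI/+ (SE; limma, adjusted p = 0.987 and 0.792), and that between Spink3-/- and Spink3-/-XKI/+ was -0.11 ± 0.21. The Pnliprp2 difference between Spink3-/- and Spink3+/+ was -0.19 without Spink3-/- replicate 1 and -0.63 without replicate 2. The Pnliprp2 intervals against Spink3+/+, -0.92 to 0.11 and -0.81 to 0.22, include 0.

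Colipase, the cofactor without which bile salts displace the lipase, had signals of 288031 and 303255 in Spink3-/- pancreas and 303317 and 284053 in Spink3-/-XKI/+, against 296987 and 300004 in Spink3+/+, on its brighter probe. All 6 lay within 1.07-fold of each other. The differences were 0.0025 ± 0.23, 0.02 ± 0.23 and -0.01 ± 0.23 in the 3 comparisons in the order used above. The dimmer Clps probe had 199501 and 172445 in Spink3-/- and 207100 and 141811 in Spink3-/-XKI/+, against 181935 and 208832 in Spink3+/+, and again the genotypes overlapped. Its differences were -0.05, -0.15 and 0.09 in the same order.

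Carboxyl ester lipase, which milk also supplies in some species, had signals of 144222 and 117069 in Spink3-/- pancreas and 121167 and 74866 in Spink3-/-XKI/+, against 131535 and 159304 in Spink3+/+. The Spink3-/-XKI/+ arrays were below all others after scaling, while Spink3-/- and Spink3+/+ overlapped. The log2 difference was -0.56 ± 0.23 between Spink3-/-XKI/+ and Spink3+/+ (95% interval -1.13 to 0.0036; limma, adjusted p = 0.658), -0.14 ± 0.23 between Spink3-/- and Spink3+/+ (adjusted p = 0.991) and 0.42 ± 0.23 between Spink3-/- and Spink3-/-XKI/+ (adjusted p = 0.748). Without Spink3-/-XKI/+ replicate 2 the Cel differences were -0.35 from Spink3+/+ and 0.21 between Spink3-/- and Spink3-/-XKI/+. Cel and Pnlip stood at opposite ends in Spink3-/-XKI/+: Cel had its lowest arrays there and Pnlip its highest.

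Pla2g1b, the secreted phospholipase, had signals of 1160 and 834 in Spink3-/- pancreas and 2184 and 2209 in Spink3-/-XKI/+, against 1509 and 1511 in Spink3+/+, on its brighter probe. After scaling, the arrays of a genotype lay close together and the genotypes did not overlap. Mean levels were 2.90 ± 0.0044 in Spink3-/-, 4.09 ± 0.20 in Spink3-/-XKI/+ and 3.51 ± 0.08 in Spink3+/+ (SD, n = 2 each). The small SD in Spink3-/- arose with the scaling, and an SD of 2 arrays is itself uncertain.
The log2 difference was -0.60 ± 0.18 (SE) between Spink3-/- and Spink3+/+, or 1.52-fold lower (limma, unadjusted p = 0.0141, adjusted p = 0.884), and 0.58 ± 0.18 between Spink3-/-XKI/+ and Spink3+/+, or 1.50-fold higher (unadjusted p = 0.0164, adjusted p = 0.548). Between Spink3-/- and Spink3-/-XKI/+ it was -1.18 ± 0.18, or 2.27-fold lower (95% interval -1.61 to -0.75), with the 27th lowest unadjusted p of all genes at 0.000505 and an adjusted p of 0.238 in limma. The dimmer Pla2g1b probe had signals of 89.9 and 66.8 in Spink3-/- and 96.6 and 130 in Spink3-/-XKI/+, against 106 and 82.1 in Spink3+/+. After scaling, its Spink3-/- arrays were again the lowest, but its Spink3-/-XKI/+ and Spink3+/+ arrays overlapped, and its differences were -0.25, 0.30 and -0.55. The choice of probe therefore moves the Pla2g1b differences by over 1.5 times.

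**Figure D2:**
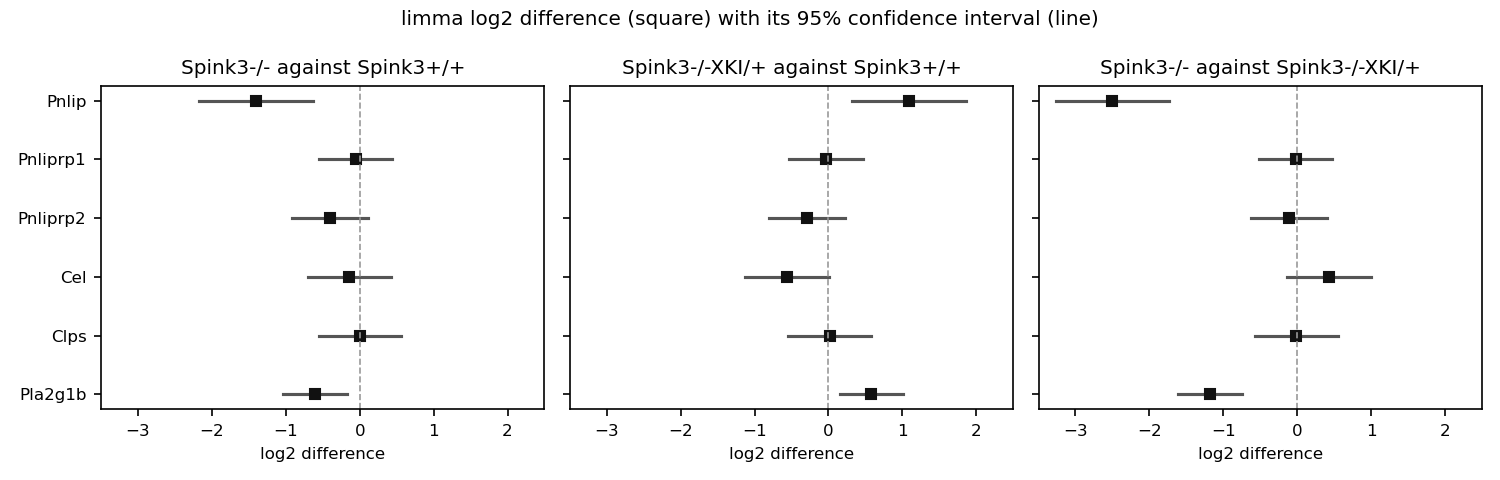
limma log2 difference of each member gene (square) with its 95% confidence interval (line) in Spink3-/- against Spink3+/+, Spink3-/-XKI/+ against Spink3+/+ and Spink3-/- against Spink3-/-XKI/+ pancreas. The Pnlip and Pla2g1b intervals exclude 0 in all 3 panels before adjustment, and the intervals of the other 4 genes include it.

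Overlap was also counted alone, with Pla2g1b read on its brighter probe. Of the 6 genes, 3 (Pnlip, Pnliprp2 and Pla2g1b) had both Spink3-/- arrays below both Spink3+/+ arrays, as had 16.6% of all genes. In Spink3-/-XKI/+ against Spink3+/+, 2 members were higher without overlap (Pnlip and Pla2g1b; 26% of all genes) and 2 lower (Pnliprp2 and Cel; 16.1%). In Spink3-/- against Spink3-/-XKI/+, 2 were lower without overlap (Pnlip and Pla2g1b; 21.4%) and 1 higher (Cel; 13.1%). The median log2 difference over the 6 members was -0.27, -0.01 and -0.07 in the 3 comparisons, beside -0.01, 0.04 and -0.04 over all genes.

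The arrays lay in 2 rows of 1 slide, with both Spink3+/+ arrays and Spink3-/- replicate 1 in one row and both Spink3-/-XKI/+ arrays and Spink3-/- replicate 2 in the other, so Spink3-/-XKI/+ and Spink3+/+ were never in the same row. Within a row, Pnlip was -1.51 in Spink3-/- against Spink3+/+ and -2.39 in Spink3-/- against Spink3-/-XKI/+, and Pla2g1b was -0.61 and -1.18, all as log2 differences. Fitted with the row as a block, the difference between Spink3-/-XKI/+ and Spink3+/+ was 0.88 ± 0.58 (SE) for Pnlip and 0.57 ± 0.31 for Pla2g1b (limma, adjusted p = 0.820 and 0.773). That fit links the rows only through the 2 Spink3-/- arrays, 1 in each row, so it holds no information beyond the within-row differences. Beside these 2 genes, the summed signal of 8 liver markers also differed, at 69.8 and 59.9 in Spink3-/-, 27.2 and 39.8 in Spink3-/-XKI/+, and 27.2 and 29.4 in Spink3+/+, with 7 or 8 of the 8 well above background on each array. The sum of 6 intestine markers was 5.17 and 6.38 in Spink3-/-, 8.94 and 8.49 in Spink3-/-XKI/+, and 8.25 and 8.87 in Spink3+/+, with 2 of the 6 well above background. Both tested intestine markers were lower in Spink3-/- than in Spink3+/+, at -0.71 and -0.36. Between Spink3-/- and Spink3-/-XKI/+ they went opposite ways, at -0.97 and 0.24. The part of these markers in the Pnlip and Pla2g1b differences was not tested.

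The most intense probes moved less over the arrays than the scale on which they were compared. Unscaled, Pnliprp1 ranged over 1.16-fold and the brighter Clps probe over 1.07-fold, while the 75th percentile ranged over 1.40-fold. After scaling, the order of the arrays for that Clps probe was exactly the reverse of their order by the 75th percentile, which put Spink3-/- replicate 1 lowest at 10.86 and Spink3-/- replicate 2 highest at 11.41. For the 50 most intense probes of the array, the median ratio of the highest to the lowest array was 1.19 unscaled and 1.38 scaled, and for the probes ranked 51 to 500 it was 1.32 unscaled and 1.24 scaled. The highest spot mean of a member, 350697, was below the scanner's saturation value of 779287, which is a limit of the scanner alone. The dimmer Clps probe ranged over 1.47-fold unscaled. Whether the most intense probes still rose in step with their transcripts was not tested. The signs of the small Pnliprp1 and Clps differences changed with the scaling.

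**Figure D3:**
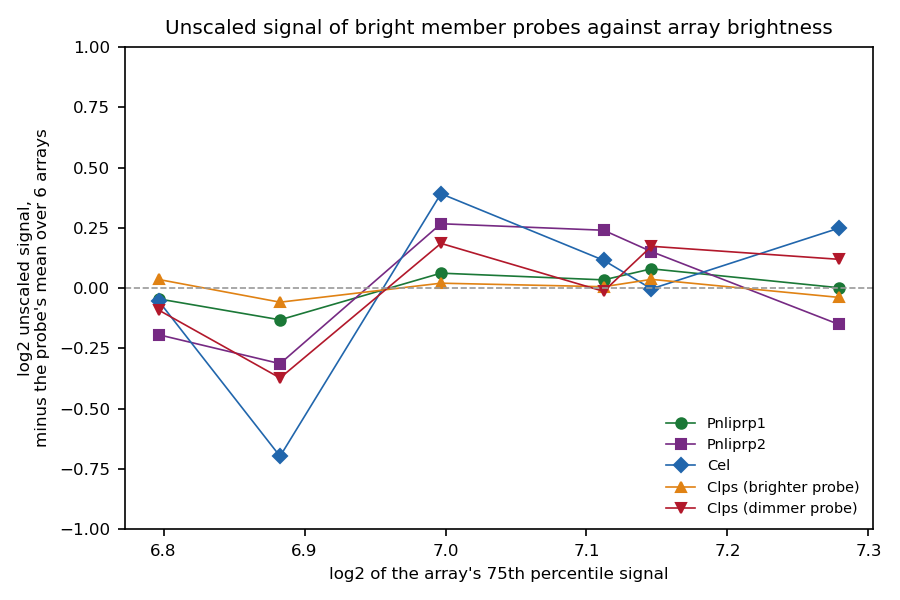
Unscaled signal of the 5 bright member probes (log2, minus the probe's own mean over the 6 arrays) against the log2 of each array's 75th percentile signal; each point is 1 array and the lines join the points of a probe. Pnliprp1 and the brighter Clps probe stay near 0 across arrays whose 75th percentile differs by 1.40-fold, while Cel falls to its lowest on the second array from the left, Spink3-/-XKI/+ replicate 2.

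The genes with the most similar patterns were sought over the 6 arrays by the root mean square distance between levels, each centred on its own mean. For Pnlip they were Podn, which encodes the matrix protein podocan (distance 0.26 log2 units, Pearson's r = 0.997), Slc38a11 (0.42) and Sh2d4a (0.47). Podn had levels of 1.62 and 1.70 in Spink3-/- and 3.75 and 3.39 in Spink3-/-XKI/+, against 2.99 and 2.33 in Spink3+/+. For Pla2g1b they were 4933431I19Rik (0.048), Gm10687 (0.16) and Slc32a1 (0.17). The nearest to Pnliprp1 were Dhx8, Gemin5 and Pygm, within 0.031, and the nearest to Clps were Capn11, H13 and Manbal, within 0.021. After scaling, Pnliprp1 ranged over 0.44 and the brighter Clps probe over 0.56 log2 units, and these nearest genes over 0.44 to 0.54. The nearest to Pnliprp2 were Ramp2, Tmem203 and Adgrg3, within 0.062, and the nearest to Cel were Uck2, Tmem255a and Copz2, within 0.074. The search left out the members themselves. All these values share the same 6 arrays and scale and are given as a description.

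Other genes of fat digestion and of the acinar secretion were read in the same fit, and none of them was called in any comparison. At an unadjusted p under 0.05 in limma, Ctrl, Dagla and Foxa2 were lower and Pla2g2d higher in Spink3-/- than in Spink3+/+. Lpl, Lipa and Gp2 were higher in Spink3-/-XKI/+ than in Spink3+/+, and Lpl and Gp2 were lower and Stx3 higher in Spink3-/- than in Spink3-/-XKI/+. Of all genes, between 2.33% and 5.02% passed in a given direction of a given comparison. Among the other secreted digestive enzymes, 19 of 23 were tested, and their median differences were -0.11, 0.04 and -0.12. Their widest difference between Spink3-/- and Spink3+/+ was that of the chymotrypsin-like protease Ctrl, at -0.84 (limma, adjusted p = 0.984), followed by the elastase Cela1 at -0.58. The trypsinogen gene 1810009J06Rik had levels of 7.99 and 7.09 in Spink3-/- and 8.89 and 9.12 in Spink3-/-XKI/+, against 6.51 and 9.17 in Spink3+/+. The Spink3+/+ arrays lay on both sides of all the others, so its difference of 1.16 in Spink3-/-XKI/+ against Spink3+/+ (limma, adjusted p = 0.790) rests on Spink3+/+ replicate 1, and it was -1.46 in Spink3-/- against Spink3-/-XKI/+ (adjusted p = 0.755).
Among the zymogen granule genes, 14 of 14 were tested, with medians of -0.06, -0.08 and 0.03. Gp2, the main protein of the granule membrane, had levels of 6.50 and 7.46 in Spink3-/- and 8.12 and 8.50 in Spink3-/-XKI/+, against 7.27 and 7.52 in Spink3+/+. Its Spink3-/-XKI/+ arrays were the highest, as for Pnlip, and its differences were -0.42, 0.91 and -1.33 (limma, adjusted p = 0.987, 0.628 and 0.552). Clpsl2, named for its likeness to colipase, was 0.45 in Spink3-/-XKI/+ against Spink3+/+, and the syntaxin Stx3 was 0.53 in Spink3-/- against Spink3-/-XKI/+.

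Of 13 other lipases 4 were tested. Lipoprotein lipase (Lpl), which frees fatty acids from blood lipoproteins, had levels of 1.51 and 1.19 in Spink3-/- and 2.52 and 2.33 in Spink3-/-XKI/+, against 1.46 and 1.35 in Spink3+/+. It was 1.02 in Spink3-/-XKI/+ against Spink3+/+ and -1.08 in Spink3-/- against Spink3-/-XKI/+ (limma, adjusted p = 0.321 and 0.320), while Spink3-/- and Spink3+/+ overlapped. Lysosomal acid lipase (Lipa) was 0.65 in Spink3-/-XKI/+ against Spink3+/+, and Pla1a, a phospholipase of the lipase family, was -0.42 in Spink3-/- against Spink3+/+.
Of 11 other secreted phospholipases A2 and their receptor 5 were tested. Pla2g5 had levels of -1.81 and -1.04 in Spink3-/- and was not well above background on any Spink3-/-XKI/+ or Spink3+/+ array, which gave measured levels of -4.11 and -4.27 in Spink3-/-XKI/+ and -4.42 and -4.83 in Spink3+/+. Pla2g5 was therefore at least 3.60-fold higher in Spink3-/- than in Spink3-/-XKI/+ (limma, adjusted p = 0.151) and at least 2.19-fold higher than in Spink3+/+ (adjusted p = 0.0716). Pla2g5 passed the filter on dim probes through Spink3-/- alone and so had to differ, and these p-values lend its differences no support. For each bound, the dim group was set on every array to its own Pla2g5 signal or, where higher, to the faintest signal that still counted as well above background. Pla2g2d, a phospholipase of lymphoid tissue, was 1.81 in Spink3-/- against Spink3+/+ (adjusted p = 0.779 in limma), with 1 of 2 Spink3+/+ arrays well above background.
Of 13 genes of lipid breakdown and storage within cells 11 were tested, with medians of -0.25, 0.02 and -0.06. The diacylglycerol lipase Dagla was -0.87 in Spink3-/- and -0.78 in Spink3-/-XKI/+, each against Spink3+/+ (limma, adjusted p = 0.984 and 0.658), and the carboxylesterase Ces1d was -0.55 in Spink3-/- against Spink3+/+. Soat1, which esterifies cholesterol, was 0.53 in Spink3-/-XKI/+ against Spink3+/+.

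**Figure D4:**
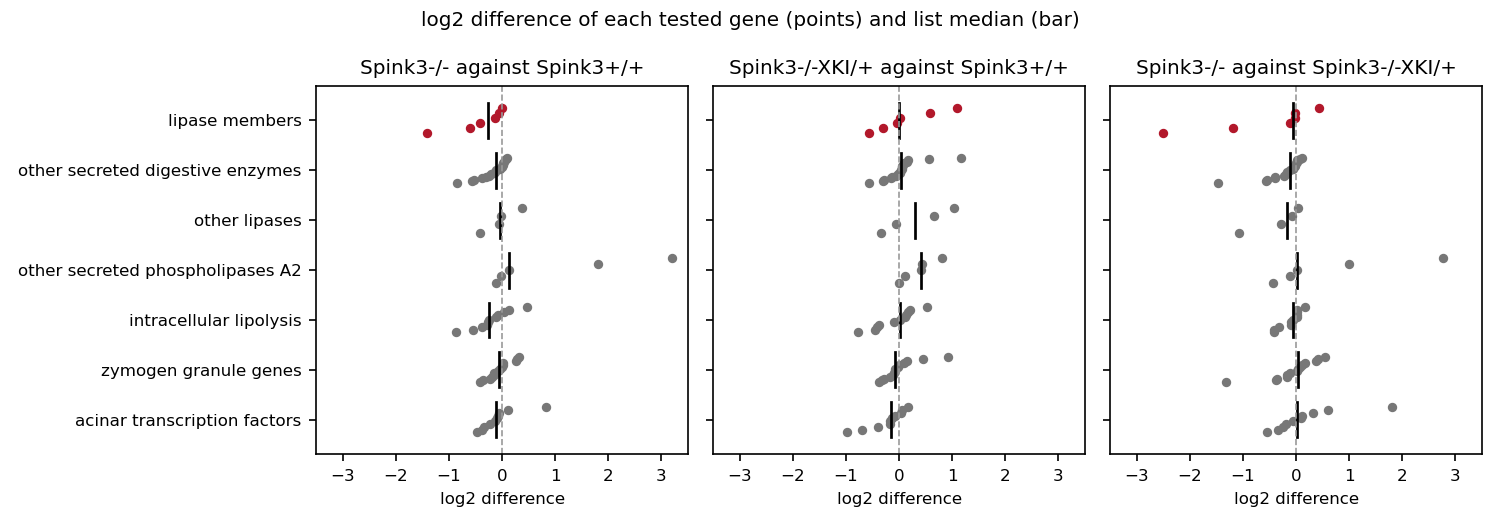
limma log2 difference of every tested gene (points) and the median of its list (bar) for the 6 members, in red, and the 6 other lists, in grey, in the 3 comparisons. Pnlip and Pla2g1b are the 2 leftmost red points in Spink3-/- against Spink3-/-XKI/+, at -2.50 and -1.18, and the rightmost grey point of the phospholipases in both comparisons of Spink3-/- is Pla2g5.

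The acinar enzyme genes are known targets of the transcription factor complex PTF1, which binds an E box (CANNTG) beside a TTTCCC box, and of Nr5a2, whose site is CAAGGTCA. Of 11 acinar transcription factors 10 were tested and none was called, with medians of -0.12, -0.16 and 0.01. Foxa2 was -0.48 in Spink3-/- against Spink3+/+ (limma, adjusted p = 0.984). Prox1 was well above background on 1 of 2 arrays in each mutant, and its Spink3-/- arrays, at -3.39 and 0.81, lay further apart than any of its differences.
Promoters were read from RefSeq for GRCm38.p6, as the 250 bases before the start of the gene, for the 5 members that matched by symbol. On both strands, CANNTG was in 66.2% of 32851 such windows, TTTCCC in 21.9%, CAAGGTCA in 1.3% and TATAAA in 12.4%. The Pnlip window, at chr19:58670115-58670364 on the plus strand, is shown because Pnlip had the widest range over the arrays, and it held none of the first 3 motifs and 1 TATAAA, in capitals, at bases -30 to -25.
Pnlip promoter: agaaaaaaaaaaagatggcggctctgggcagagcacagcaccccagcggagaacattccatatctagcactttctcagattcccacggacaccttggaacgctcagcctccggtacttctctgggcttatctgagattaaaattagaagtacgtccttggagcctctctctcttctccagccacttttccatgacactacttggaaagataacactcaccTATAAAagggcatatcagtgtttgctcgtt
The Cel window, at chr2:28563404-28563653 on the minus strand, is shown for contrast, since Cel had its lowest arrays where Pnlip had its highest. It held 5 CANNTG, 1 TTTCCC and 1 CAAGGTCA, all in capitals. Its TTTCCC and CAAGGTCA were read on the opposite strand, so their complements are printed, and CAAGGTCA overlaps the E box that starts at base -32.
Cel promoter: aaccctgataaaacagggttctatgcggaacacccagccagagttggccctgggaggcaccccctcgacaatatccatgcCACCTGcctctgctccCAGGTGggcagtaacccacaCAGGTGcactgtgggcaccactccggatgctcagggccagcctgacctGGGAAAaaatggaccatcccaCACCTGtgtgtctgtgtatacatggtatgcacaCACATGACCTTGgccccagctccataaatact
Pnliprp1 had 2 CANNTG and Pnliprp2 had 1, and none of the 4 motifs was in the Pla2g1b window, which may begin at a start within the gene and then does not hold its promoter. A match describes letters in this window and is no measure of binding.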

How the data were processed

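Whole pancreas RNA was measured on 6 Agilent arrays, 2 for each of 3 genotypes taken from the labels. The deposited values are intensity values from Agilent Feature Extraction 10.7.3.1, per the submitters' processing notes, and per the file headers they are background-subtracted, detrended signals per spot, linear in scale and annotated on mm9. Those deposited files also flag each spot, as 0 or 1, for being well above background, saturated or outlying. The deposited value table of the series repeats these intensities.

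Here each signal was divided by its array's 75th percentile, taken over the 59305 spots that are not controls, and put on the log2 scale. Outlier spots were left out, spots of a probe averaged, and probes kept where both arrays of some genotype were well above background, leaving 24824 of 55681 probes. Names came from RefSeq: 26762 probes matched by accession, 3819 by symbol and 639 by older symbol, 2024 kept the file's name and 22437 had none. A gene was read from its brightest unsaturated probe, which gave 14164 genes.

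Genotypes were compared with limma 3.58.1 (lmFit, contrasts.fit, eBayes, two-sided; R 4.3.3; version 1.17.8 of data.table) on all 6 arrays with 3 residual degrees of freedom, adjusted by Benjamini-Hochberg over all tested genes, and tested on simulated data. Figures used matplotlib 3.10.9 in Python 3.11.15. The named genes are the members, Spink3, the 3 nearest genes to each member, and per list up to 2 genes with the widest difference, of which some are given; some list genes and sequences are not reported here. The members and lists were chosen with earlier results of these data known. Marker lists for acinar, duct, islet, fat, liver, intestine, stomach, macrophage, neutrophil, lymphocyte, erythroid, muscle, endothelial and stromal cells were summed as linear signals over the 75th percentile. The replicate numbers were not taken to pair the samples. The correlations of their deviations between genotypes were 0.20, -0.06 and 0.03, which cannot exclude a pairing. Alternatives covered background correction (normexp with an offset of 50), scaling, dim-probe filter, probe choice, the series table, slide row, replicate block and each array left out. The number of arrays limits the precision.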

Additional observations from a re-analysis of the deposited data

How the results depend on the processing

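No lipase gene was called under any alternative tried in any comparison. Pnlip and Pla2g1b kept the sign of all their differences: for Pnlip these ranged from -1.77 to -0.63 in Spink3-/- against Spink3+/+, from 0.73 to 1.45 in Spink3-/-XKI/+ against Spink3+/+ and from -2.80 to -1.45 in Spink3-/- against Spink3-/-XKI/+, and for Pla2g1b from -0.66 to -0.43, from 0.44 to 0.72 and from -1.32 to -0.87. These Pla2g1b ranges leave out the dimmer probe read alone. With every probe as its own feature, that probe gave -0.25, 0.30 and -0.55, of the same signs but outside the ranges. The adjusted p over the alternatives was at its lowest 0.169 for Pnlip and 0.0797 for Pla2g1b, both in Spink3-/- against Spink3-/-XKI/+ with the normexp background correction. The series value table repeats the processed signals and gave the same values.

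Smaller differences changed sign, and the cause was not tested. In Spink3-/- against Spink3+/+, Clps became -0.019 with normexp, -0.026 with the mean of its probes, -0.28 with the slide row as a block and -0.014 with no scaling between arrays, an alternative chosen after seeing the data; Pnliprp1 became 0.052 with spike-in scaling. In Spink3-/-XKI/+ against Spink3+/+, Clps became -0.0028 with normexp, -0.065 with the mean of its probes, -0.54 with the slide row and -0.024 with no scaling; Pnliprp1 became 0.0034 with spike-in scaling. In Spink3-/- against Spink3-/-XKI/+, Clps became 0.054 with spike-in scaling, 0.039 with the mean of its probes, 0.27 with the slide row and 0.0099 with no scaling, Pnliprp1 became 0.048, 0.20 and 0.0043 with spike-in scaling, slide row and no scaling, and Pnliprp2 became 0.11 with the slide row. Read alone, the dimmer Clps probe gave -0.055, -0.15 and 0.091 in the 3 comparisons, also of changed sign.

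With single arrays left out, Clps ran from -0.28 to 0.28, from -0.069 to 0.10 and from -0.29 to 0.27 in the 3 comparisons in the order above, Pnliprp1 from -0.27 to 0.17, from -0.11 to 0.038 and from -0.24 to 0.20, Cel in Spink3-/- against Spink3+/+ from -0.33 to 0.057, and Pnliprp2 in Spink3-/- against Spink3-/-XKI/+ from -0.33 to 0.11. Without changing sign, but by over 1.5 times, Cel ran from -0.78 to -0.35 in Spink3-/-XKI/+ against Spink3+/+ and from 0.21 to 0.64 in Spink3-/- against Spink3-/-XKI/+, and Pnliprp2 from -0.63 to -0.19 in Spink3-/- against Spink3+/+ and from -0.40 to -0.19 in Spink3-/-XKI/+ against Spink3+/+, where the slide row made it -0.73. Cel was above 0 without Spink3+/+ replicate 2 and Pnliprp2 without Spink3-/- replicate 1, and the ends of the ranges of Clps and Pnliprp1 in both comparisons of Spink3-/- came without Spink3-/- replicate 2 (lowest) and replicate 1 (highest).

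The number of genes called over all genes was 5 in Spink3-/- against Spink3+/+, 1 in Spink3-/-XKI/+ against Spink3+/+ and 1 in Spink3-/- against Spink3-/-XKI/+. The first count was 11 with every probe as its own feature, 2 with the mean of a gene's probes, and 1 each with normexp, no filter on dim probes, only probes above background on all arrays, the replicate block and the slide row. The second was 2 with normexp or every probe, 3 with quantile normalization and 0 with the slide row. The third was 0 with normexp, no filter, the stricter filter, every probe or the replicate block, 4 with quantile normalization, 2 with spike-in or no scaling, and 3 with the slide row. With single arrays left out, on the same genes and probes, the counts ran from 1 to 6, from 1 to 2 and from 0 to 3, and a lone array was taken to vary like the other groups. The replicate block, on numbers not known to pair the samples, called no lipase gene. Signals near background limit Pnlip in Spink3-/-.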

Other observations

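Other cell types and tissues were read through their markers, and none of these markers was called by limma in any comparison. At an unadjusted p under 0.05, 5 of 8 liver and 2 of 6 macrophage markers were higher and 3 neutrophil markers and 1 intestine marker lower in Spink3-/- than in Spink3+/+, 2 macrophage markers were higher and 2 neutrophil and 3 erythroid markers lower in Spink3-/-XKI/+ than in Spink3+/+, and 5 liver markers were higher in Spink3-/- than in Spink3-/-XKI/+; of the other types at most 1 marker passed in a comparison. Of all genes, 2.73% were higher and 2.33% lower at that threshold in Spink3-/- against Spink3+/+, 5.02% and 2.54% in Spink3-/-XKI/+ against Spink3+/+, and 2.44% and 4.77% in Spink3-/- against Spink3-/-XKI/+. The sum of 6 neutrophil markers, in units of the array's 75th percentile, was 71.7 and 91.0 in Spink3-/- pancreas, 92.7 and 90.8 in Spink3-/-XKI/+ and 106 and 156 in Spink3+/+. The sum of 6 macrophage markers was 43.2 and 46.0 in Spink3-/-, 57.3 and 46.7 in Spink3-/-XKI/+ and 35.6 and 40.3 in Spink3+/+, with all 6 well above background on every array. Of 5 fat cell markers Fabp4 was the one that passed the filter, and the sum over the 5 was 13.9 and 15.6 in Spink3-/-, 12.8 and 12.2 in Spink3-/-XKI/+ and 18.0 and 19.1 in Spink3+/+. The erythroid sum was 394 and 415 in Spink3-/-, 287 and 266 in Spink3-/-XKI/+, and 812 and 364 in Spink3+/+, where the 2 arrays differed by more than any pair of the other genotypes. The sum of 3 tested endothelial markers and 1 below the filter was 116 and 179 in Spink3-/-, 141 and 168 in Spink3-/-XKI/+, and 104 and 115 in Spink3+/+. Kdr dominated this sum, with a mean level of 7.04 beside 0.18 for Cdh5 and -0.40 for Pecam1. Of the tested endothelial markers, 1 was higher and 2 lower in Spink3-/-XKI/+ than in Spink3+/+. In Spink3-/- against Spink3+/+, 2 were higher and 1 lower. The stroma sum was 303 and 272 in Spink3-/-, 287 and 363 in Spink3-/-XKI/+ and 241 and 275 in Spink3+/+, that of duct markers 28.7 and 31.1, 26.0 and 32.7, and 23.6 and 27.3 in the same genotypes, and that of lymphocyte markers 16.7 and 30.1, 24.9 and 21.4, and 17.4 and 18.7. The islet sum was 2533 and 2876 in Spink3-/-, 3083 and 2993 in Spink3-/-XKI/+, and 2628 and 2631 in Spink3+/+. Stomach and striated muscle markers summed to under 3 on every array.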
